A study of Mus musculus with 6 samples.

Results

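The chemokine ligand genes were taken as the protein-coding genes of the GENCODE mouse annotation (GRCm38) whose symbol is Ccl or Cxcl followed by a digit. This rule found 35 of 21864 protein-coding genes, namely 23 Ccl and 12 Cxcl genes. The rule used names and no peak value. H3K4me3 and H3K4me1 were profiled by Mint-ChIP, a chromatin immunoprecipitation in which barcoded samples are pooled, in 3 libraries per mark. Each library was made from 50000 B cells of the germinal center (GC), sorted from spleens of wild-type (WT) mice that had received sheep red blood cells 8 days earlier. The labels call the cells GC centrocytes, the fraction of the light zone, whereas the methods of the study speak of GC B cells. The label text on extraction names an antibody against H3K27ac, whereas the titles, the antibody labels and the methods name H3K4me3 (ab8580) and H3K4me1 (ab8895), and the marks were taken from the titles. No other genotype, treatment or time point is part of these libraries, and the labels give neither strain nor age nor say whether the 3 libraries of a mark came from separate mice.

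Chemokines are small secreted proteins that bind G protein-coupled receptors and steer the migration of leukocytes. In the spleen, stromal cells and follicular dendritic cells are known sources of the chemokines that place B cells in follicles and in the zones of the GC, while B cells read these signals through their receptors. Trimethylation of histone H3 at lysine 4 (H3K4me3) is known for the promoters of active or poised genes, and monomethylation (H3K4me1) for enhancers and promoter flanks. Many chemokine genes sit side by side in clusters that arose by duplication, with inflammatory ligands in the larger ones.

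A gene was counted as carrying a mark in a library where a peak lay within 5 kb of one of its annotated transcription start sites (TSSs). The term "marked" is used for genes with such an H3K4me3 peak in 3 of 3 libraries and "unmarked" for genes with one in 0 of 3. Peaks are the authors' own calls, made in each library separately, and fold enrichment is the caller's ratio of signal to local background. The H3K4me3 lists held 41936 to 46707 peaks and the H3K4me1 lists 11922 to 24136. Read depth is unknown from these files. The lists of the marks were called in different modes, broad for H3K4me3 and narrow for H3K4me1, and down to a −log10 q-value of 1.02 and 1.31, respectively. The GC B cell markers Bcl6 and Pax5 carried H3K4me3 in 3 of 3 libraries. Of markers of other cell types, 1 of 6 for T cells (Lck) and 2 of 6 for myeloid cells (Itgam and Cd14) did so. So did 3 of 4 for dendritic cells (Flt3, Zbtb46 and Batf3) and 2 of 4 for endothelial cells (Cdh5 and Pecam1). For stromal and follicular dendritic cells it was 2 of 7 (Col1a1 and Mfge8), and these 7 include the unmarked ligand genes Cxcl13 and Ccl19. Csf1r, Itgax and Pdgfra had a peak in 2 libraries and Cd3g, Adgre1 and Kdr in 1. Cd3e, Cd4, Cd8a, Themis, Lyz2, Mpo, Col1a2, Pdpn and Tek had none. Over all protein-coding genes the share with H3K4me3 in 3 of 3 libraries was 56.2%. The part of other cell types in the results below was not tested.

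The sequences before the start sites of the genes on which the results turn are given first. They were read from the RefSeq promoter table (GRCm38.p6), which held 25 of the 35 genes (71.4%), and stop 1 base before the annotated gene. Each runs 5′ to 3′ on the strand of its gene, and capitals mark CpG dinucleotides. Of the marked genes, 4 had an entry: Cxcl10 (chr5:92348890-92349139, minus strand), Cxcl12 (chr6:117168285-117168534, plus strand), Ccl25 (chr8:4324960-4325209, plus strand) and Ccl27a (chr4:41774248-41774426, minus strand).
Cxcl10: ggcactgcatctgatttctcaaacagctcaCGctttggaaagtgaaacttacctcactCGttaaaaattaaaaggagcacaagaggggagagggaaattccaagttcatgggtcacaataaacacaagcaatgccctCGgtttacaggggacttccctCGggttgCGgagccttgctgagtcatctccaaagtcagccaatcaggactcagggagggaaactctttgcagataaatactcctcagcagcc
Cxcl12: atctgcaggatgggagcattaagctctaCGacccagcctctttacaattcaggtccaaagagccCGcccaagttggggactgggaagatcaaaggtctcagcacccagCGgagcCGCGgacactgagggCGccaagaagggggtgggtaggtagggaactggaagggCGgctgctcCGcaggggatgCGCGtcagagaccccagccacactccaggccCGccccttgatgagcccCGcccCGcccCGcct
Ccl25: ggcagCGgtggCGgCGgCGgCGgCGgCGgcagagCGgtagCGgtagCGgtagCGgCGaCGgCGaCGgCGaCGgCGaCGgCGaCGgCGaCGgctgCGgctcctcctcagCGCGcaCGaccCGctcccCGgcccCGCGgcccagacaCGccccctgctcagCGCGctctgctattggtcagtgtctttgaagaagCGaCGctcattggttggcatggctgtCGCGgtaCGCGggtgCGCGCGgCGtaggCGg
Ccl27a: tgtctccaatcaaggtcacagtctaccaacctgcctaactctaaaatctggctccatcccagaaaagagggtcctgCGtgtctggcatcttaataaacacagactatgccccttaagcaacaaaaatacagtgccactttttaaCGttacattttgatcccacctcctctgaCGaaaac
As many unmarked genes are shown beside them, a pair from the cluster on chromosome 8 and 1 from each of the largest clusters without marked genes: Ccl22 (chr8:94745434-94745589, plus strand), Ccl17 (chr8:94810203-94810452, plus strand), Cxcl2 (chr5:90903649-90903870, plus strand) and Ccl12 (chr11:82101595-82101844, plus strand).
Ccl22: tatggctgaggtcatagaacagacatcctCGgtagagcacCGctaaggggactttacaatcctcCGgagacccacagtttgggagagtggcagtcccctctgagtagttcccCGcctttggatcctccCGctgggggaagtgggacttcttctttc
Ccl17: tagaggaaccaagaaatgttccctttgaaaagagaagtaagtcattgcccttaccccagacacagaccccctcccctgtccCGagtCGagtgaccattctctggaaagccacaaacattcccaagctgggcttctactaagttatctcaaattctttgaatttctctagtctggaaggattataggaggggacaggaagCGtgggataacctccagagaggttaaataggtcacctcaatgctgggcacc
Cxcl2: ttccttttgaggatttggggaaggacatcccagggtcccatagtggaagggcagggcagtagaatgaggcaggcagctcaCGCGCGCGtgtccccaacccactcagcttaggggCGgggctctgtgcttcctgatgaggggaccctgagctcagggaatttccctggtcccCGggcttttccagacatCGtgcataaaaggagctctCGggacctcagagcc
Ccl12: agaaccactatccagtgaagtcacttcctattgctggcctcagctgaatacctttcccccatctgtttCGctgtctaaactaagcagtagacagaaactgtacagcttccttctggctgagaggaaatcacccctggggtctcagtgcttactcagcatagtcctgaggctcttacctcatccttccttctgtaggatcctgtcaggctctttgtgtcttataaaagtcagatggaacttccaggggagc
The stretch before Ccl25 held 45 CpGs in 250 bases and that before Cxcl12 held 14, whereas the same length held 5 before Cxcl10, 3 before Ccl17 and 1 before Ccl12. The shorter stretches held 3 CpGs in 179 bases for Ccl27a, 5 in 156 for Ccl22 and 8 in 222 for Cxcl2. Marked genes thus differed in the CpG number of these stretches, which stop before the start and differ in length. In windows from 250 bases before to 50 after a start, Cxcl10 held 10 CpGs and the starts of Ccl27a held 5, 11 and 12. The median over all promoters was 7. The stretch before Ccl25 lies inside the overlapping gene Elavl1.

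Most chemokine ligand genes carried neither mark at their promoters. H3K4me3 lay within 5 kb of a TSS in 3 of 3 libraries at 8 of 35 genes (22.9%), against 56.2% of all protein-coding genes. These were Cxcl16, Cxcl10, Ccl25, Ccl27a, Cxcl12, Ccl5, Ccl26 and Ccl24. Ccl26 and Ccl24 shared a peak between them in each library, and in replicate 1 Ccl24 had another of its own. At 24 genes (68.6%) no H3K4me3 peak was found in any library, against 34.5% of all protein-coding genes. The remaining 3 genes, Ccl3, Ccl6 and Ccl9, had a peak in 1 library each.

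The share of ligand genes with H3K4me3 was 9 of 35, or 25.7%, in every library (95% Wilson interval 14.2% to 42.1%, counting error only). The ninth gene differed between libraries, being Ccl6 in replicate 1, Ccl9 in replicate 2 and Ccl3 in replicate 3. Among the other protein-coding genes the share was 61.8%, 59.3% and 60.4%. The difference was −34.8 ± 1.23 percentage points (SD, n = 3) and was negative in all 3 libraries (two-sided exact sign-flip permutation test, p = 0.25, the smallest p that 3 libraries allow).

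H3K4me1 was called at fewer ligand genes than H3K4me3. It lay within 5 kb of a TSS at 4, 3 and 1 of 35 genes in replicates 1, 2 and 3, which is 11.4%, 8.57% and 2.86%, against 26.7%, 16.9% and 15.6% of the other genes. The difference was −12.1 ± 3.53 percentage points (SD, n = 3; exact sign-flip permutation test, p = 0.25). No ligand gene had H3K4me1 in 3 of 3 libraries, whereas 6.17% of all protein-coding genes did. At least 1 library held a peak at 6 genes (17.1%), against 35.7% of all protein-coding genes, and these were Ccl25, Cxcl12, Ccl24, Ccl26, Ccl3 and Ccl6. The share of ligand genes with H3K4me1 minus the share with H3K4me3 was −18.1 percentage points (two-sided exact permutation test over the 20 splits of 6 libraries, p = 0.1, the smallest they allow), and this contrast includes the difference in calling mode and in the number of peaks. With the best 10000 peaks of each library, which makes the lists equal in length, it was −2.86 percentage points (exact permutation test, p = 0.6).

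**Figure D1:**
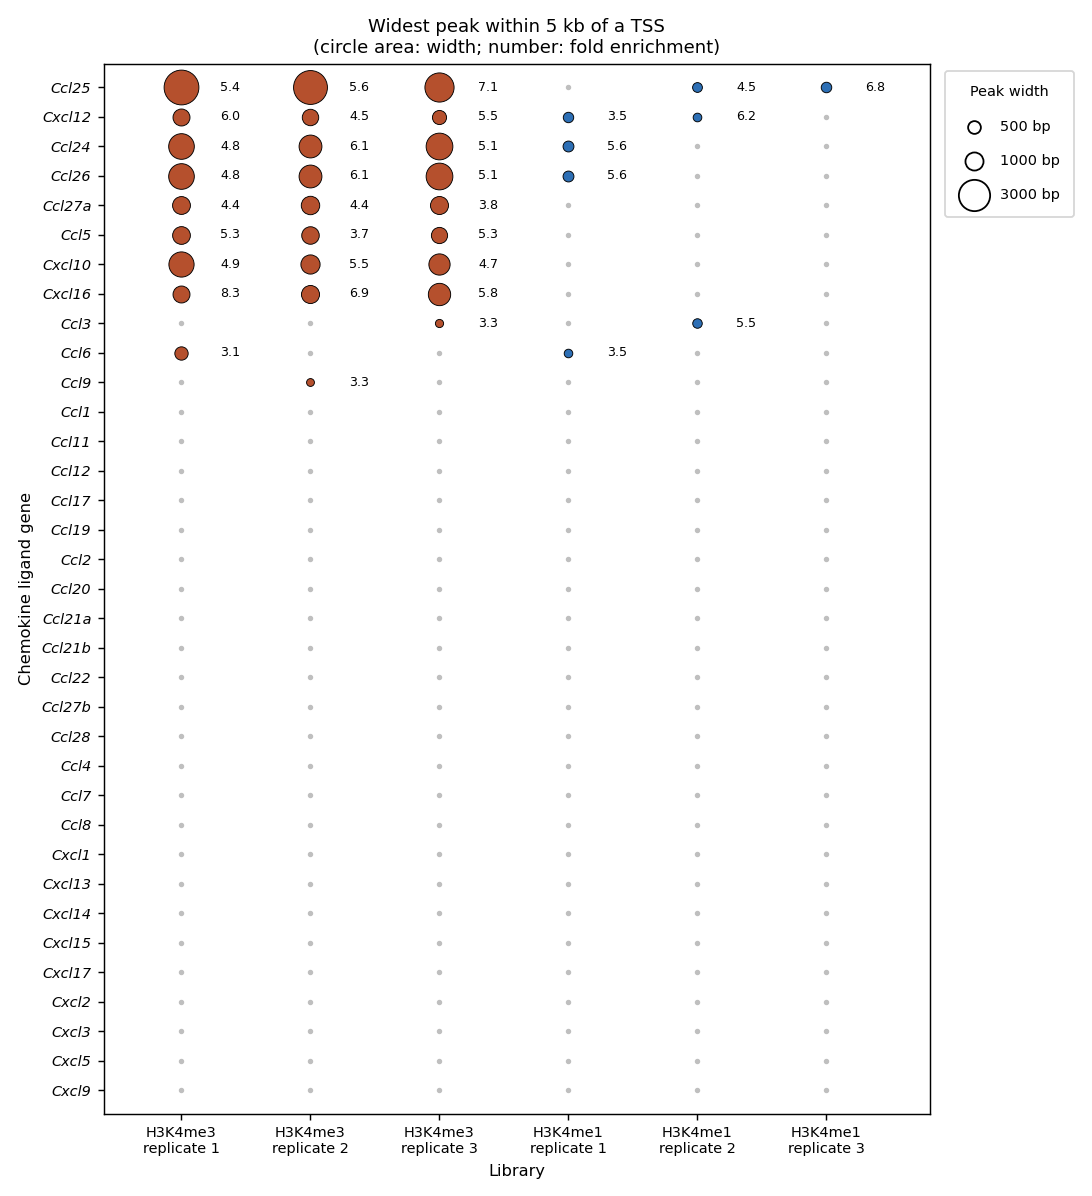
Widest peak within 5 kb of a TSS for each of the 35 chemokine ligand genes (rows) in the 6 libraries (columns). Circle area is proportional to peak width in bp, the number beside it is fold enrichment, and grey points are genes without a peak. The 8 genes at the top had H3K4me3 in all 3 libraries, 3 had it in 1, and 24 had none.

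**Figure D2:**
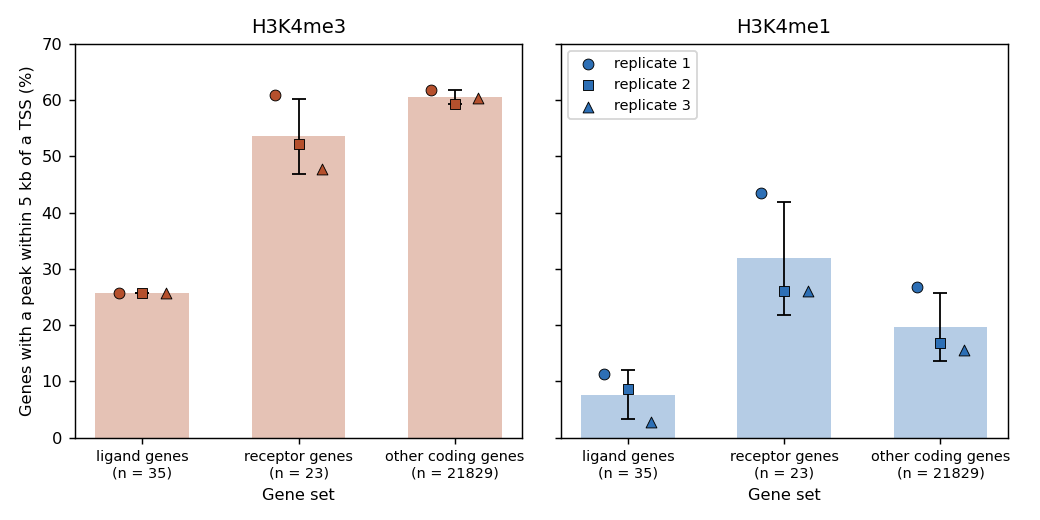
Share of genes with a peak within 5 kb of a TSS, in percent, for chemokine ligand genes, chemokine receptor genes and all other protein-coding genes. Symbols are the 3 libraries of each mark, bars their mean and lines the SD. The ligand genes sat at 25.7% for H3K4me3 and at 2.86% to 11.4% for H3K4me1, below both other sets in every library.

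Only 3 genes had H3K4me3 over the start site itself in 3 of 3 libraries (8.57%), against 38.4% of all protein-coding genes, and these were Cxcl16, Cxcl10 and Ccl25. Cxcl16 encodes a membrane-bound ligand of CXCR6 that is known from antigen-presenting cells. Its start on chromosome 11 was covered by peaks of 882, 1000 and 1529 bp with fold enrichments of 8.32, 6.87 and 5.75 in replicates 1, 2 and 3. These peaks also covered the TSS of Zmynd15, so the 2 starts cannot be told apart by them. No H3K4me1 peak lay within 5 kb of Cxcl16.

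Cxcl10 encodes an interferon-inducible ligand of CXCR3. Its TSS lay under peaks of 1948, 1131 and 962 bp with fold enrichments of 4.88, 5.49 and 4.18. Another peak lay 3914, 4612 and 4204 bp upstream, inside the overlapping gene Art3, with fold enrichments of 6.91, 7.44 and 4.68. The upstream peak thus had the higher enrichment in each library. Its stretch common to the 3 libraries was 765 bp long, and the central 200 bases (chr5:92353783-92353982, minus strand, GRCm38) hold 6 CpGs, in capitals, and no annotated TSS.
Cxcl10 upstream peak: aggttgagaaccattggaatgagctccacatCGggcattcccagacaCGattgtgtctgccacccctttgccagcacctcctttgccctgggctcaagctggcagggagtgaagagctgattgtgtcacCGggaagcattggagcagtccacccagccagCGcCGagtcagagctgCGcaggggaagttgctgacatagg
No H3K4me1 peak was called at Cxcl10. Cxcl9, its neighbour and the other CXCR3 ligand examined, had no H3K4me3 peak within 5 kb, and its nearest one was 9.38, 17.0 and 17.8 kb away in replicates 1, 2 and 3.

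Ccl25, which encodes the CCR9 ligand of thymus and small intestine, had the widest peaks among the ligand genes. They spanned 3711, 3521 and 2610 bp with fold enrichments of 5.41, 5.63 and 7.1. These peaks also covered the TSS of the overlapping gene Elavl1, so the 2 starts cannot be told apart by them. A separate, narrower peak lay inside Ccl25, 990, 1299 and 1249 bp before its internal TSS and 22189 to 22451 bp from the TSS of Elavl1. It measured 735, 573 and 738 bp with fold enrichments of 5.63, 3.99 and 5.08. H3K4me1 was called within 5 kb of Ccl25 in replicates 2 and 3, 1850 and 2594 bp from the TSS on the Elavl1 side. The summits of these narrow peaks held 5 and 9 fragments.

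Ccl27a encodes a CCR10 ligand known from skin. Its peaks of 977, 1044 and 996 bp had fold enrichments of 4.42, 4.44 and 3.84, covered a TSS in replicates 1 and 2 and lay 147 bp from one in replicate 3. Of the 31-base words within 5 kb of its TSSs, 62.7% also occur elsewhere on the 21 chromosomes, against 1.05% to 16.2% for the 30 genes outside the duplicated region of chromosome 4. Cxcl12 encodes the CXCR4 ligand that draws GC B cells to the dark zone. In each library a peak lay inside the gene, 281, 373 and 281 bp past a TSS, with widths of 884, 829 and 614 bp and fold enrichments of 6.03, 4.5 and 5.48. Replicate 1 held another H3K4me3 peak of 363 bp, 1137 bp upstream of the TSS, with a fold enrichment of 3.28. H3K4me1 was called 413 and 607 bp past the TSS in replicates 1 and 2, with 4 and 8 fragments at the summit, and not in replicate 3. Both H3K4me1 peaks lay inside the H3K4me3 peak of replicate 1.

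At the other marked genes the peaks found in all 3 libraries lay at a distance from the start. Ccl5 encodes an inflammatory chemokine known from T cells. Its peaks lay upstream in intergenic sequence, 3662, 3760 and 3680 bp from the TSS, with widths of 967, 943 and 806 bp and fold enrichments of 5.29, 3.71 and 5.26. The nearest other protein-coding TSS, that of Heatr9, was 12005 to 12103 bp away. Ccl26 and Ccl24 encode eotaxins, ligands of CCR3 on eosinophils. Peaks of 2017, 1601 and 2192 bp with fold enrichments of 4.75, 6.14 and 5.11 lay between them, 3569, 4458 and 4056 bp upstream of Ccl26 and 3895, 3422 and 3233 bp from the TSS of Ccl24, past its 3′ end. In replicate 1 a further peak of 1088 bp with a fold enrichment of 3.47 lay inside Ccl24, 1490 bp from its TSS and 6903 bp from that of Ccl26. When each peak was given to the gene with the nearest TSS, Ccl26 was lost and 7 genes stayed marked, against 54.1% of all protein-coding genes. Ccl24 then kept replicate 1 only through the peak inside the gene, since the shared peak was nearer to Ccl26 in that library. In replicate 1 this intergenic region also held 2 narrow H3K4me1 peaks, with 6 and 7 fragments at their summits.

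The peaks within 5 kb of ligand genes were narrower, at the median, than those near protein-coding TSSs in general. Their median width was 972, 965 and 979 bp in the 3 H3K4me3 libraries, whereas the median over all peaks within 5 kb of a protein-coding TSS was 1460, 1283 and 1301 bp. Median fold enrichment was 4.81, 4.83 and 5.10 at ligand genes and 5.63, 5.31 and 5.25 over all such peaks, a smaller gap. These medians are descriptions, since several peaks share a gene.

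The genes with a peak in 1 library belonged to the cluster that also holds Ccl5. Ccl3 had a peak of 206 bp, 288 bp from its TSS, in replicate 3 (fold enrichment 3.29). Ccl6 had one of 546 bp at 2238 bp in replicate 1 (3.06), and Ccl9 one of 189 bp at 4660 bp in replicate 2 (3.27). All 3 were lower in fold enrichment than any of the peaks that gave the 8 marked genes their widest call. Ccl6 also had H3K4me1 at 3107 bp in replicate 1 with 4 fragments at the summit, and Ccl3 at 1924 bp in replicate 2 with 7 fragments.

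The limit of 5 kb left 1 gene just outside. Ccl17, a CCR4 ligand, had H3K4me3 peaks downstream at 5263, 6476 and 6612 bp from its TSS, with widths of 2565, 1250 and 1020 bp and fold enrichments of 5.05, 4.7 and 5.7. An H3K4me1 peak with 8 fragments at its summit lay there at 6499 bp in replicate 1. For H3K4me3, calls that rested on a peak just inside the limit were Ccl9 at 4660 bp and Ccl26 at 4458 bp, both in replicate 2. For H3K4me1 the call of Ccl24 in replicate 1 rested on a peak at 4587 bp. The stretch that the 3 H3K4me3 peaks downstream of Ccl17 share was 1020 bp long and overlaps no protein-coding gene, and its central 200 bases (chr8:94817474-94817673, plus strand, GRCm38) hold 2 CpGs, in capitals.
Ccl17 downstream peak: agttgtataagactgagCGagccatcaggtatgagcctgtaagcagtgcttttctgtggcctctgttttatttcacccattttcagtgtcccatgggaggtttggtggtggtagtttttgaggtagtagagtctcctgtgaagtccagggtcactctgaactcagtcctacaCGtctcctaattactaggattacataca
Within 10 kb, 9 genes carried H3K4me3 in 3 of 3 libraries, and the share of ligand genes minus that of other genes was −31.1 percentage points.

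**Figure D3:**
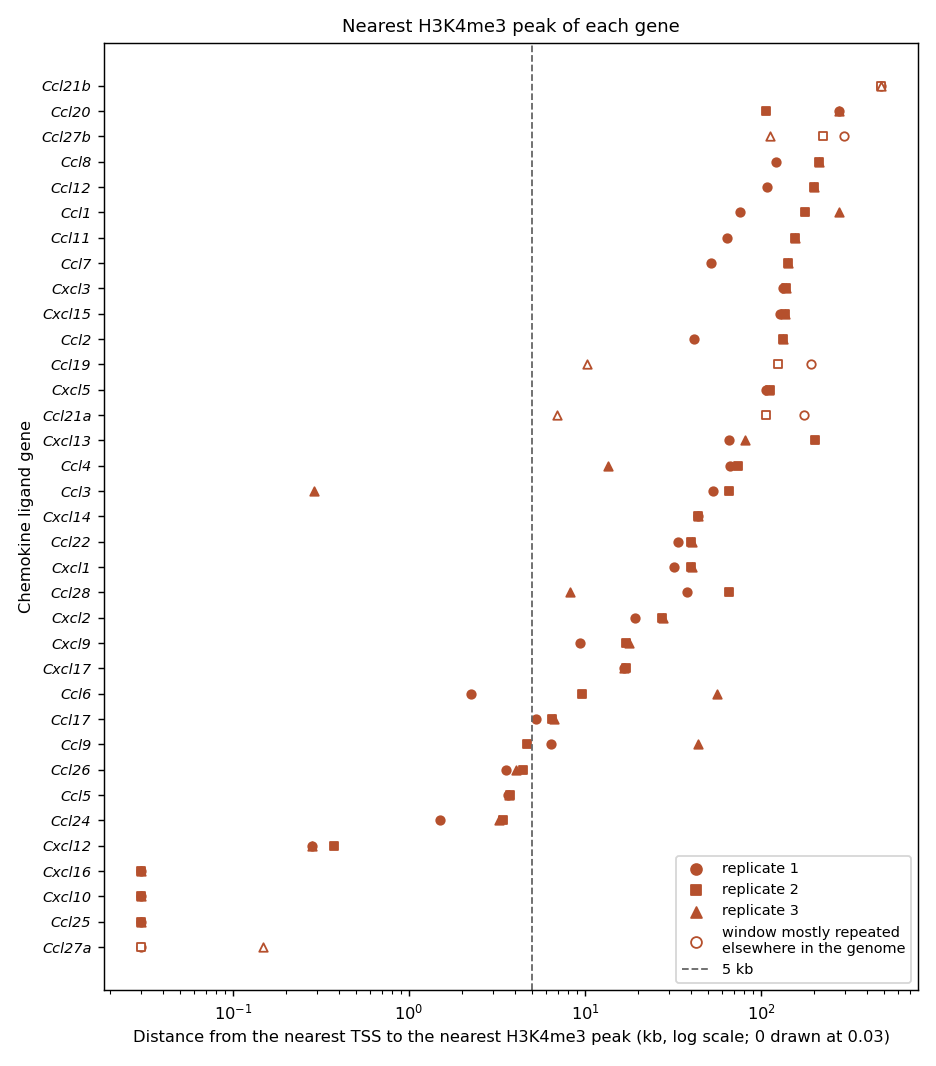
Distance from the TSS to the nearest H3K4me3 peak for each chemokine ligand gene (rows), in kb on a log scale, with 1 symbol per library, peaks over a TSS drawn at 0.03 kb and a dashed line at 5 kb. Open symbols are genes whose 5 kb window is mostly found elsewhere in the genome. The 3 libraries sat close together for the marked genes, and the unmarked genes spread from just right of the line to 481 kb at Ccl21b.

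The median distance from a ligand gene to its nearest H3K4me3 peak was 41.5, 65.9 and 40.3 kb, against 0.156, 0.358 and 0.271 kb for the other protein-coding genes. For H3K4me1 it was 73.6, 111 and 187 kb, against 32.8, 61.5 and 72.7 kb. Among the 24 unmarked genes, the nearest H3K4me3 peak in any library ranged from 5.26 kb at Ccl17 to 481 kb at Ccl21b.

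Each of the 6 genes with H3K4me1 in any library also had H3K4me3 in at least 1. H3K4me1 was called at 3, 2 and 1 of the 8 marked genes in replicates 1, 2 and 3 (37.5%, 25.0% and 12.5%) and at 0 of the 24 unmarked genes in each. The difference was 25.0 ± 12.5 percentage points (SD, n = 3; exact sign-flip permutation test, p = 0.25). With the best 10000 peaks of each library, which leave 1 gene marked, it was −2.22. Ccl24 was counted in replicate 1 only through an H3K4me1 peak that Ccl26 shared. Among the other protein-coding genes, 26.7%, 16.9% and 15.6% carried H3K4me1 in replicates 1, 2 and 3. Their split by H3K4me3 is not given here, so the difference cannot be called particular to ligand genes.

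Grouped by receptor, no group of ligands was marked throughout apart from those of a single gene. Of the 5 inflammatory ligands of the Ccl5 to Ccl4 cluster, 1 was marked (Ccl5) and Ccl4 alone was unmarked. Of the eotaxins, 2 of 3 were marked and Ccl11 was not. Of the CCR9 and CCR10 ligands, 2 of 4 were marked, while Ccl28, a mucosal chemokine, and Ccl27b had no peak. Of the CXCR3 ligands, 1 of 2 was marked. The single ligands of CXCR4 and CXCR6, Cxcl12 and Cxcl16, were both marked. None was marked among the 5 CCR2 and CCR8 ligands (Ccl2, Ccl7, Ccl8, Ccl12 and Ccl1), which attract monocytes and T cells. The same was true of the 5 CXCR2 ligands (Cxcl1, Cxcl2, Cxcl3, Cxcl5 and Cxcl15), which attract neutrophils, and of both CCR4 ligands, Ccl17 and Ccl22. Also unmarked were the 3 CCR7 ligands (Ccl19, Ccl21a and Ccl21b), Cxcl13, the CXCR5 ligand of follicles, and Ccl20, the CCR6 ligand. Cxcl14 and Cxcl17, listed apart from these groups, had no peak. Around the CCR7 ligands and Ccl27b, 66.1% to 100% of the 31-base words occur elsewhere, so reads there may not have been placed.

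The receptor genes were closer than the ligand genes to the other protein-coding genes in their share with H3K4me3. Of 23 chemokine receptor genes, 11 carried H3K4me3 in 3 of 3 libraries, namely Ccr6, Ccr7, Ccr9, Ccr10, Cxcr3, Cxcr4, Cxcr5, Xcr1, Ackr2, Ackr4 and Ccrl2, and 9 had it in none, against 56.2% and 34.5% of all protein-coding genes. The share was 60.9%, 52.2% and 47.8% in replicates 1, 2 and 3, against 61.8%, 59.3% and 60.4% of the genes other than ligands. It was 27.9 ± 6.64 percentage points above the ligand genes (SD, n = 3; exact sign-flip permutation test, p = 0.25). For H3K4me1 it was 43.5%, 26.1% and 26.1%, or 24.3 ± 7.32 points above them (exact sign-flip permutation test, p = 0.25). Ccr7, Cxcr4, Cxcr5 and Ackr4 had H3K4me1 in 3 of 3 libraries, which no ligand gene did. The 4 chemokine genes with names of another kind, Xcl1, Cx3cl1, Pf4 and Ppbp, had neither mark.

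Set side by side, ligand and receptor fell into all 4 combinations. Cxcr5 was marked while its ligand Cxcl13 was not, and the same held for Ccr7 with Ccl19 and Ccl21a and for Ccr6 with Ccl20. Both sides were marked for Cxcl12 and Cxcr4, Cxcl10 and Cxcr3, Ccl25 and Ccr9, and Ccl27a and Ccr10. Cxcl16 was marked while Cxcr6 had no peak in any library. Neither side was marked for Ccl17 and Ccl22 with Ccr4 or for Cxcl1 with Cxcr2.

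Ligand genes whose bodies lay within 200 kb of the next formed 7 clusters of at least 2 genes, which held 25 of the 35 and spanned 851 kb with flanks of 5 kb. Of the 25 clustered genes 4 were marked and 18 unmarked, and of the 10 single genes 4 were marked and 6 unmarked. Over all protein-coding genes 56.2% were marked and 34.5% unmarked. Clustered and single genes were not compared further. Ccl26 and Ccl24 shared a peak, and the unmarked Ccl27b, Ccl19, Ccl21a and Ccl21b lie in the duplicated region of chromosome 4. Clusters with a marked gene were Cxcl9 to Cxcl10 and Ccl26 to Ccl24 on chromosome 5 and Ccl5 to Ccl4 on chromosome 11, which together spanned 209 kb. In the other 4 clusters, which spanned 642 kb and held 16 genes, no gene had a peak of either mark within 5 kb in any library.

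The cluster of the neutrophil chemokines, Cxcl5 to Cxcl2 (chr5:90754360-90910938), was the emptiest. It holds Cxcl5, Cxcl3, Cxcl15, Cxcl1 and Cxcl2 with the platelet chemokine genes Ppbp and Pf4, and contained 0 peaks of either mark in all 6 libraries. The stretch without any peak ran on for 270 kb around it, and for H3K4me1 alone for 925 kb. The cluster of the monocyte chemokines, Ccl2 to Ccl1 (chr11:82030571-82310690), holds Ccl2, Ccl7, Ccl11, Ccl12, Ccl8 and Ccl1. Its only peak was an H3K4me3 peak of 205 bp in replicate 1, and the peak-free stretch around the first 5 of these genes was 262 kb long. Of the words in the windows of the 11 genes in these 2 clusters, 1.05% to 11.1% occur elsewhere in the genome.

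The other 2 unmarked clusters were not free of peaks. Ccl22 to Ccl17 (chr8:94740590-94817036), which includes Cx3cl1, held 3, 1 and 0 H3K4me3 peaks, among them the edge of the peak downstream of Ccl17. Ccl27b to Ccl21a on chromosome 4 held 1 H3K4me3 peak of 272 bp in replicate 3. In this duplicated region 66.1% to 100% of the words around Ccl21a, Ccl19 and Ccl27b occur elsewhere, and 99.9% around Ccl21b, so an absent peak there cannot be told apart from reads that could not be placed.

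H3K4me3 covered 4.09%, 2.03% and 2.37% of the marked clusters in replicates 1, 2 and 3, and 0.447%, 0.0168% and 0.0424% of the unmarked ones. This contrast follows in part from how the clusters were divided and carries no test. H3K4me1, which was not used to divide them, covered 0.552%, 0.133% and 0% of the marked clusters and 0.0132%, 0% and 0% of the unmarked ones. Over their whole span, the 7 clusters were covered by H3K4me3 to 1.34%, 0.512% and 0.615%, against 2.21%, 1.81% and 1.86% of the rest of the genome (difference −1.14 ± 0.238 percentage points, SD, n = 3; exact sign-flip permutation test, p = 0.25). For H3K4me1 coverage was 0.146%, 0.0328% and 0% against 0.29%, 0.16% and 0.13% (difference −0.134 ± 0.00949 percentage points, SD, n = 3; exact sign-flip permutation test, p = 0.25). Both differences were negative in all 3 libraries of their mark.

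**Figure D4:**
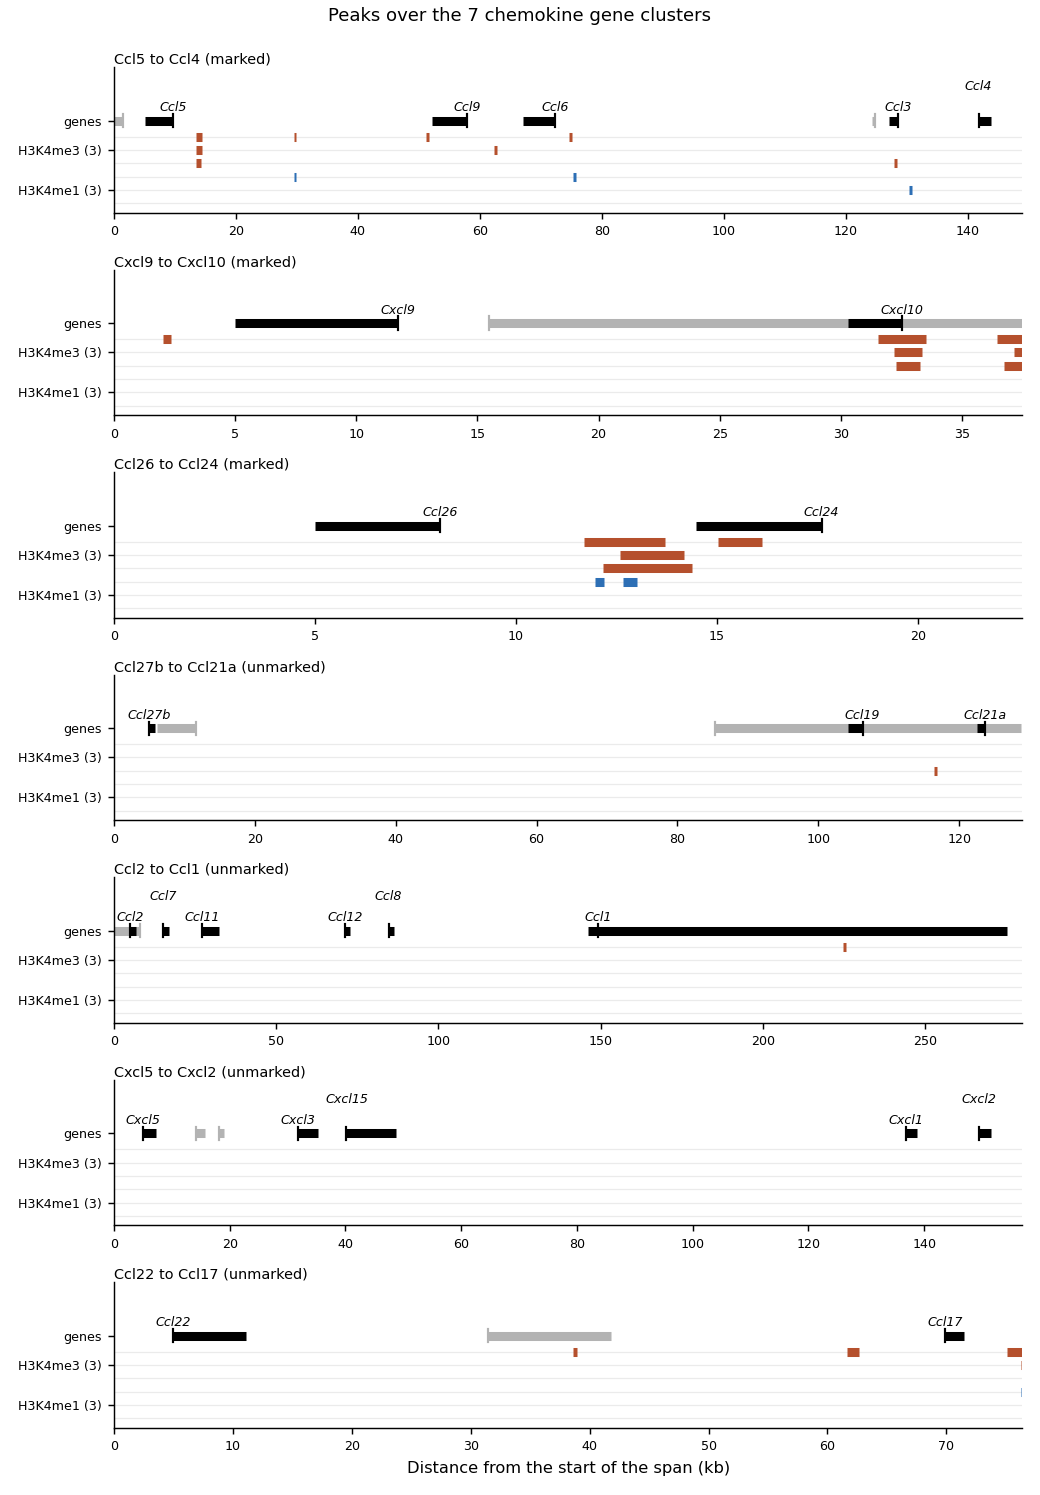
Genes (black, chemokine ligand genes; grey, other protein-coding genes; ticks, TSSs) and peaks (rows, replicates 1 to 3 of H3K4me3 in brown and of H3K4me1 in blue) over the 7 clusters, by distance in kb from the start of each span; very narrow peaks are drawn wider for visibility. Peaks recur at one place in the 3 H3K4me3 libraries near Ccl5, Cxcl10 and between Ccl26 and Ccl24, and the Cxcl5 to Cxcl2 span holds none.

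Promoter letters were compared with the whole RefSeq table of 32851 promoters, each reaching from 250 bases before to 50 after a start. As under 80% of the ligand genes had an entry, marked and unmarked genes were not compared as sets. Every motif was searched on both strands. The NF-kB consensus, found in 4.51% of all promoters, matched at Cxcl10, at an internal start of Ccl27a, at the unmarked Cxcl1, Cxcl2, Cxcl3 and Ccl20, and at Ccl9. In Cxcl10 the matches began at positions −159 and −103 relative to the start. The TTTC, any 2 bases, TTTC motif of the IRF type, found in 3.44%, matched at Cxcl10, Cxcl14 and Ccl19. TATAAA, found in 13.6%, matched at the unmarked Ccl8, Ccl12, Cxcl3, Cxcl9, Cxcl13, Cxcl15 and Ccl27b, at Ccl9, and at the internal start of Ccl25. TTCNNNGAA, found in 8.3%, matched at Ccl17 and Cxcl14. GGAAGT, found in 23.8%, matched among the marked genes at Ccl25 and at Cxcl10, where it overlaps the NF-kB match nearer to the start. It also matched at the unmarked Ccl1, Ccl12, Ccl20, Ccl22, Ccl27b, Ccl28 and Cxcl9, and at Ccl3, Ccl6 and Ccl9. In the full window the Ccl25 promoter held 52 CpGs and that of Cxcl12 held 20, while the median over all promoters was 7. Unmarked Cxcl14 held 22, Cxcl2 held 11 and Cxcl10, which was marked, held 10. The entry named for unmarked Ccl21b held 45, but it starts at chr4:42172870, away from the annotated gene at chr4:42255767. A match describes these letters only.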

How the data were processed

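Mint-ChIP peak lists of 6 libraries, 3 per mark, were used as deposited. The labels' processing notes name BWA, Picard, HOMER and Genrich and the build mm10; the columns follow the MACS2 layout, while the caller, its settings and its control are not given in the sources used here. The deposited lists give fold enrichment, a linear ratio to local background, with −log10 p-values and q-values of the authors' caller and a score that was not used. Coordinates were checked against GRCm38, where 0 peaks lay past a chromosome end.

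TSSs (45078, of 21864 protein-coding genes) came from GENCODE release M21. Every ligand gene is named, and marked genes are given with their values in each library. Members, lists and the receptor groups were chosen with earlier results of these data known. Fragments at H3K4me1 summits were recovered from the deposited fold enrichment and −log10 p-value under a Poisson model (tolerance 0.0005), which was possible for 100% of peaks. Differences were taken within a library and tested by exact sign-flip permutation, and marks by exact permutation. The tests then measure only the spread between libraries, which may be technical. Scripts (Python 3.11.15, numpy 2.4.6, pandas 2.3.3, scipy 1.17.1) were tested on simulated data. Alternatives were the distance, the q-value, the best 10000 peaks, the nearest TSS, 2 of 3 libraries, chaining at 500 kb, flanks and leaving out libraries; after seeing the data, peaks over the TSS and genes with mostly unique windows were added.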

Additional observations from a re-analysis of the deposited data

How the results depend on the processing

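Of 93 values recomputed under alternatives, 85 kept their direction and, for counts, stayed within 1.5 times the reported value, 7 counts moved and 1 difference reversed. Several of the 85 changed in size. With the best 10000 peaks of each library the contrast between marks was −2.86 (exact permutation p = 0.6). Cluster coverage by H3K4me3 minus the rest was then −0.617. In that setting 6 rather than 4 clusters had no gene with an H3K4me3 peak within 5 kb in 2 or more libraries. At a −log10 q-value of at least 5 the coverage difference for H3K4me1 was −0.0434. The 8 genes with H3K4me3 in 3 of 3 libraries became 5 within 1 kb of a TSS, 2 at a −log10 q-value of at least 5, 1 among the best 10000 peaks of each library and 3 where the peak had to cover the TSS. Stricter settings keep fewer peaks by construction. At these 4 settings the share of ligand genes with H3K4me3 minus that of other genes was −40.4, −30.0, −25.7 and −34.2 points. The count of genes with H3K4me1 in every library rose from 0 to 2 when 2 of 3 libraries sufficed, and ranged from 0 to 1 when 1 library was left out, with 1 without H3K4me1 replicate 1 or without replicate 3. The difference between marked and unmarked genes in H3K4me1 reversed to −2.22 points with the best 10000 peaks, where 1 gene was marked. The share of ligand genes minus that of other genes stayed negative throughout, from −40.4 to −25.7 points for H3K4me3 and from −15.5 to −4.0 for H3K4me1. With the 30 genes of mostly unique windows these differences were −33.8 and −10.8. With the replicate number as a block, the contrast between marks was −18.1 points (exact permutation p = 0.25, the smallest this pairing allows). Whether libraries of the same number share cells is not given. Correlations between libraries of the 2 marks were −0.011, 0.001 and 0.006 for the same number and −0.018 to 0.016 for different numbers. Such small values for all pairs cannot show whether the numbers pair the libraries. Depth is unknown, 3 libraries per mark cannot give a p below 0.25 within a mark or 0.1 between marks, and an absent peak shows only that the caller's threshold was not passed.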
